A study of Mus musculus with 200 samples.

Results

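Levels of 8 genes of the pluripotent epiblast were followed through every deposited expression table of a mouse peri-implantation study. The genes were Pou5f1, Nanog, Sox2, Sall4, Utf1, Trim71, Lin28a and L1td1, taken by symbol from 25006 gene rows (25229 rows in 2 of the 7 tables). The tables held 200 RNA-seq libraries in 70 groups, each library made from about 10 to 100 cells with the Smart-seq2 full-length method, and values were given as TPM, a share of transcripts scaled for gene length. Embryos came from natural matings or from culture outside the uterus, and cells of each lineage were separated after trypsin; mouse strain was not given.

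The groups were these. Epiblast labelled Epi was compared between controls and embryos given GSK-J4, an inhibitor of the histone demethylases Kdm6a and Kdm6b, at E4.5 and at E5.0 (3 libraries each); the design text gives 50 µM, applied to E3.5 blastocysts. Epi and primitive endoderm (PrE), both at E5.0, were compared between controls and embryos knocked out for both Suz12 and Eed, subunits of the Polycomb repressive complex that methylates histone H3 (3 libraries each). Zbtb17, a zinc-finger transcription factor and Myc partner, was perturbed in Epi at E4.5, where titles say knockout and the treatment label says dTAG, and in Epi at E5.0 with dTAG, a ligand that degrades tagged proteins. Embryoid bodies (EB), aggregates of differentiating stem cells, were wild type or Zbtb17 knockout on days 0, 1, 2 and 3 (2 libraries each); their cell line was not given, and all knockout titles carry 1 name, so they may be 1 clone. A screen of 148 Epi libraries in 10 batches held 40 knockout groups and the controls of each batch at E5.0, except that batch 8 is titled 6.0 and labelled E5.0. Control embryos and EB were all labelled wild type, and knockouts in embryos were made with C-CRISPR, which uses several guides per gene, so a library may hold cells with different alleles.

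Pou5f1 (Oct4), Sox2 and Nanog are transcription factors that bind together at enhancers of pluripotent cells and maintain the epiblast lineage. Sall4 is a zinc-finger factor that works with them and is also made in primitive endoderm, and Utf1 is a chromatin-bound factor of pluripotent cells and a classical target of Pou5f1 with Sox2. Lin28a is an RNA-binding protein that blocks maturation of the let-7 microRNAs; Trim71 is an RNA-binding repressor and ubiquitin ligase whose messenger RNA is a known let-7 target, and L1td1 is an RNA-binding protein of pluripotent cells that derives from a transposon. Around implantation, the epiblast lowers Nanog and other naive genes, raises Otx2 and related formative genes and keeps Pou5f1.

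The members lie on 7 chromosomes (mm10, GENCODE vM21): Pou5f1 at chr17:35506018-35510772 (plus strand, 5 exons in its longest transcript), Nanog at chr6:122707489-122714633 (plus, 4 exons), Sox2 at chr3:34650405-34652461 (plus, 1 exon), Sall4 at chr2:168748332-168767943 (minus, 4 exons), Utf1 at chr7:139943789-139945112 (plus, 2 exons), Trim71 at chr9:114507133-114564369 (minus, 4 exons), Lin28a at chr4:134003330-134018841 (minus, 4 exons) and L1td1 at chr4:98726734-98738480 (plus, 5 exons). Sox2 lies inside Sox2ot on the same strand, and Pou5f1, Sall4, Trim71 and Lin28a each overlap a gene on the other strand. The sources used here do not say that counting used the strand, so reads of such partners cannot be told apart. Reads of near-identical copies could also have been split from or added to Pou5f1 in the authors' counting, so its levels are uncertain to that extent. Rows named as its related sequences held a median of 19.1% of their sum with Pou5f1 (2.59% to 36.0%). This covers 178 libraries at 10 TPM or more, without EB day 0, where the share was 58.4% to 64.3%. With these rows added to Pou5f1, 186 member results outside the screen and 65 screen calls stayed on the same side of the threshold.

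The upstream sequences of Nanog, Utf1 and Pou5f1 (RefSeq, GRCm38.p6, up to the base before the start of transcription) are shown because these were the members called with GSK-J4 at E5.0, with Utf1 in the opposite direction to Nanog and Pou5f1. Capitals mark matches on either strand to ATGCAAA (a POU factor site), ACAATG (a SOX site) and GGGCGG (a GC box).
Nanog, chr6:122707239-122707488, plus strand: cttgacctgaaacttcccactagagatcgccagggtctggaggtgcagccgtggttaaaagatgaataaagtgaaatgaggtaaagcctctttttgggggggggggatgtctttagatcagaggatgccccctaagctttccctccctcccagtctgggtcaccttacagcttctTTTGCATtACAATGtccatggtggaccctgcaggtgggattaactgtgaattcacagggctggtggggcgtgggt
Utf1, chr7:139943606-139943788, plus strand: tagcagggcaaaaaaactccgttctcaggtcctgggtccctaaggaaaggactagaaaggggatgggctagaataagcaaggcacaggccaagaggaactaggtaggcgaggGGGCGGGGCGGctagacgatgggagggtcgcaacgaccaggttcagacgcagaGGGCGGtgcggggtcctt
Pou5f1, chr17:35505782-35506017, plus strand: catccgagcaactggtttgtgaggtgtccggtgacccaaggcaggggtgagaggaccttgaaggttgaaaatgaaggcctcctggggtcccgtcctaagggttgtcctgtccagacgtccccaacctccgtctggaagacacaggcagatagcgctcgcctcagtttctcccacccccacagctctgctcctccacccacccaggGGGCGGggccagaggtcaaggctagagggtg

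In the Nanog sequence TTTGCAT started at -75 and ACAATG at -67, 1 base apart. The POU and SOX sites occurred together, at any distance, in 211 of 32851 RefSeq promoters (0.642%). The exact arrangement was read from Nanog itself, so its rarity is no test. It was held by 2 promoters (0.00609%), both rows of Nanog. The Utf1 sequence held GGGCGG at -138, -133 and -85, the first 2 overlapping by 1 base, and that of Pou5f1 held it at -45. Among the members whose sequence is not shown, Sox2 held 1 match to the POU site (at -99) and 2 to the GC box, Trim71 held the GC box at -12, Lin28a held the SOX site at -96, and L1td1 held none of the 3. The POU site occurred in 4.12% of all RefSeq promoters, the SOX site in 10.7% and the GC box in 32.7%. Sall4 was named only, since 7 of the 8 members were matched.

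The let-7 family is shown because it links Lin28a, which restrains it, to Trim71, which it targets. The mature sequence (RefSeq, GRCm38.p6, chr13:48538239-48538260, minus strand) has its seed, bases 2 to 8, in capitals, and the sites below it have the match to the seed, CTACCTC, in capitals; 11 mature mouse microRNAs in RefSeq share this seed.
mmu-let-7a-5p: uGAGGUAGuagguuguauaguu
Lin28a, bases 894 to 915 after the stop codon: gcacagcctgttgaaCTACCTC
Lin28a, bases 1532 to 1553 after the stop codon: gagatcgccacaaacCTACCTC
Trim71, bases 151 to 172 after the stop codon: aacattgcctaagtcCTACCTC
Trim71, bases 247 to 268 after the stop codon: agtgataatttctatCTACCTC
Sall4, bases 1067 to 1088 after the stop codon: agggctttaatttatCTACCTC

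In the longest coding transcript (GENCODE vM21), CTACCTC occurred 4 times after the stop codon of Trim71, 2 times in Lin28a and 1 time in Sall4, and was not found in that stretch of Pou5f1, Nanog, Sox2, Utf1 or L1td1. Of 21823 genes, 1854 (8.5%) held at least 1 match. The stretches searched ran from 122 bases in Utf1 to 5512 in Trim71, and longer ones have more room for a match. A match describes the letters and does not show that a site is used.

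Labels were checked against marker genes before any comparison. In 13 of the 15 control groups labelled Epi, the summed TPM of 20 trophectoderm and extraembryonic ectoderm markers was above that of 10 epiblast markers, and in 11 the sum of 22 primitive endoderm markers was above it; batch 8 and the E4.5 Zbtb17 table were the 2 groups with the epiblast sum above the trophectoderm sum. Controls labelled PrE had a primitive endoderm sum of 10716 to 11921 TPM and an epiblast sum of 161 to 174. Between 3986 and 13512 genes reached 1 TPM per library. Libraries that stood apart were EB day 0 (57.3% to 59.9% of TPM in ribosomal protein genes), batch 7 of the screen (18.9% to 32.0% of TPM in the ribosomal RNA row Rn45s), batch 6 (Pou5f1 below 7 TPM in all 6 libraries) and the E4.5 Zbtb17 table (3986 to 4952 genes at 1 TPM). Groups hold 2 or 3 libraries that the labels call biological replicates. The p-values rest on the spread between libraries within groups, pooled over all groups of a table. In the screen this pools all 10 batches, so a p-value there does not measure the spread of the groups compared alone.

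In control and wild-type groups the highest mean was in EB, on day 1, 2 or 3, for Pou5f1, Nanog, Sox2, Trim71, Lin28a and L1td1. Pou5f1 stood at 2389.9 ± 75.8 TPM (mean ± SD, n = 2) in EB on day 1, 537 ± 83.1 (n = 3) in the E4.5 Epi controls of the GSK-J4 table and 531 ± 77.3 (n = 3) in batch 8. In the other Epi controls at E5.0, batch 6 aside, group means ran from 19.2 (batch 4) to 90.6 (batch 5). The E4.5 controls of the GSK-J4 table and batch 8 overlapped, and each lay above every other embryo group. The E4.5 Epi controls of the Zbtb17 table did not share this level, with Pou5f1 listed at 0 in 2 libraries and at 38.1 TPM in the third. In bulk samples, fewer cells of a type and less RNA per cell cannot be told apart.

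Nanog stood at 277 ± 13.3 TPM (n = 2) in EB on day 3, 76.2 ± 19.6 (n = 3) in the E4.5 controls of the GSK-J4 table, 18.0 ± 27.8 (n = 3) in those of the Zbtb17 table, 34.1 ± 9.46 in batch 8 and 30.7 ± 2.75 in batch 3. The controls of batch 2 were all listed at 0, and the remaining Epi controls at E5.0 had group means of 0.658 to 5.90. Sox2 was the member with the widest gap between EB and embryos. It stood at 333 ± 6.45 TPM in EB on day 1, whereas no embryo control group had a mean above 11.4. In the screen, at these low levels, Sox2 passed the test in 1 of 38 knockouts.

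Sall4 had its highest level in control primitive endoderm, 976 ± 103 TPM (n = 2), above the Epi controls of the same table at 286 ± 88.4 (n = 3), with no overlap. Utf1 had the highest TPM of the 8 members in each of the 13 Epi control groups at E5.0, from 1462 ± 103 TPM in batch 8 down to 202 ± 6.66 in batch 3, and stood at 103 ± 29.4 in primitive endoderm. Trim71 ranged from 6.53 TPM (batch 5) to 39.5 among Epi control means at E5.0, batch 7 aside, and Lin28a from 3.02 (batch 2) to 33.6. L1td1 stood at 19.2 (batch 8) to 62.6 TPM in the same groups. Most neighbours in each order overlapped, and batches were not normalized together here, so their order is a description.

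**Figure D1:**
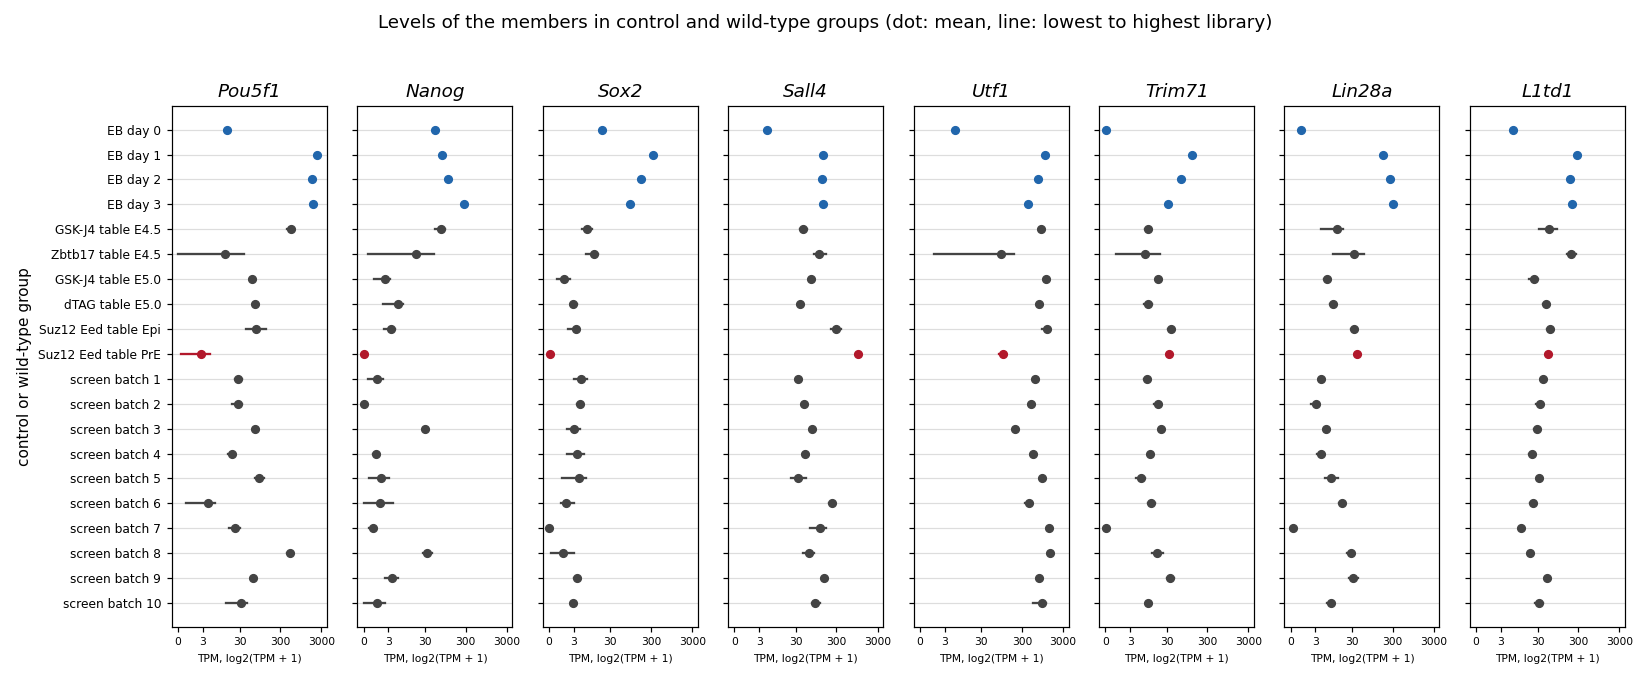
Mean level (dot) and the lowest to highest library (line) of each of the 8 genes in the 20 control and wild-type groups, in TPM on an axis spaced as log2(TPM + 1); blue marks EB, red marks PrE and grey marks Epi. Sall4 is highest in PrE, where Pou5f1 is lowest, and Sox2 is low in every embryo group.

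With GSK-J4 at E4.5, Utf1 fell, and the other 7 members overlapped between treated and control libraries. Control libraries held 776, 852 and 950.2 TPM of Utf1 and treated libraries 482, 502 and 634. All treated libraries lay below all controls (log2 change -0.68 ± 0.14 (SE), adjusted p = 0.0419). This was 1 of 8 members, against 1.15% of the 9982 genes tested. The call did not hold in 8 of 12 alternatives, among them quantile normalization and leaving out any 1 control.

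Pou5f1 at E4.5 stood at 557, 446 and 608 TPM in controls and 660.4, 599.8 and 607 with GSK-J4 (log2 change 0.22 ± 0.14 (SE), adjusted p = 0.629), and the groups overlapped. Nanog ran from 54.7 to 92.9 TPM in controls and from 71.1 to 93.8 with GSK-J4. Lin28a ranged widely within controls (4.31, 17.3 and 15.8 TPM). Of the 29 tested genes in a list of the core pluripotency network, Dppa3 (366 against 81.7 TPM) and Dppa5a (27166 against 19293 TPM), both genes of naive pluripotency, rose and none fell (0.611% and 0.541% of all genes; median log2 change -0.25, against 0.01 for all genes). None of 25 tested let-7 pathway genes passed (median log2 change -0.13, against 0.01 for all genes). The epiblast marker sum was 1039 to 1166 TPM in controls and 666 to 765 with GSK-J4, and the primitive endoderm sum from 5044 to 5429 and 6334 to 6835; their part in the Utf1 result was not tested.

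At E5.0, GSK-J4 libraries labelled Epi held more Pou5f1 and Nanog and less Utf1 than controls. Control libraries held 55.3, 68.2 and 60.9 TPM of Pou5f1 and treated libraries 118, 98.8 and 126. Every treated library lay above every control (log2 change 0.88 ± 0.16 (SE), adjusted p = 0.00485). Nanog rose from 0.752, 3.37 and 2.98 TPM in controls to 12.2, 13.9 and 25.4 in treated libraries, again without overlap (log2 change 2.47 ± 0.51 (SE), adjusted p = 0.0092). With a control at 0.752 TPM, the controls alone did not meet the filter of 1 TPM. Nanog was therefore tested only with the help of the treated libraries. Utf1 fell from 1152, 1134 and 1108 TPM to 331, 383 and 438, with every treated library far below every control (log2 change -1.57 ± 0.11 (SE), adjusted p = 5.74e-05).

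These were 3 of the 7 members tested, against 28.3% of the 10681 genes tested. The 3 include Nanog, which entered the test only with the help of the treated libraries. The median change of all genes was 0.12 in this comparison and -0.14 after quantile normalization; relative to the former, Pou5f1 changed by 0.76, Nanog by 2.35 and Utf1 by -1.69. All 3 calls held in each of 12 alternatives. Sall4 stood at 75.5, 68.1 and 65.6 TPM in controls and 134, 72.0 and 97.0 with GSK-J4 (log2 change 0.49 ± 0.23 (SE), adjusted p = 0.156), and it passed only when treated replicate 2 was left out (log2 change 0.70, adjusted p = 0.0265). Trim71, Lin28a and L1td1 overlapped between the groups, and Sox2, at 2.32, 0.933 and 0.548 TPM in controls and 0, 3.94 and 0.264 with GSK-J4, was too low to be tested.

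Among 29 tested genes of the core network, 7 rose and 8 fell with GSK-J4 at E5.0 (16.6% and 11.7% of all genes; median log2 change -0.67, against 0.12 for all genes). Over all genes, 1778 rose and 1245 fell, and after quantile normalization 1256 rose and 1540 fell. Tbx3 (23.5 against 0.505 TPM), Klf4 (21.2 TPM with GSK-J4) and Nr0b1 (45.8 against 11.6 TPM), factors of naive pluripotency, rose most. Among those that fell most were Tdgf1 (39.0 against 244 TPM), a Nodal co-receptor, and Pou3f1 (3.64 against 18.7 TPM), a POU factor of the later epiblast. In a list of 27 let-7 pathway genes, 5 of 23 tested rose, led by Ccnd2, Igf2bp2 and Cdkn1a, and Ccnd1 and Tarbp2 fell (median log2 change 0.14, against 0.12 for all genes). The primitive endoderm marker sum was 854 to 878 TPM in controls and 7709 to 8667 with GSK-J4, with all 20 tested markers called higher; the epiblast sum was 607 to 627 and 235 to 311 and the trophectoderm sum 4336 to 4596 and 3197 to 3349.8. Their part in the member changes was not tested.

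**Figure D2:**
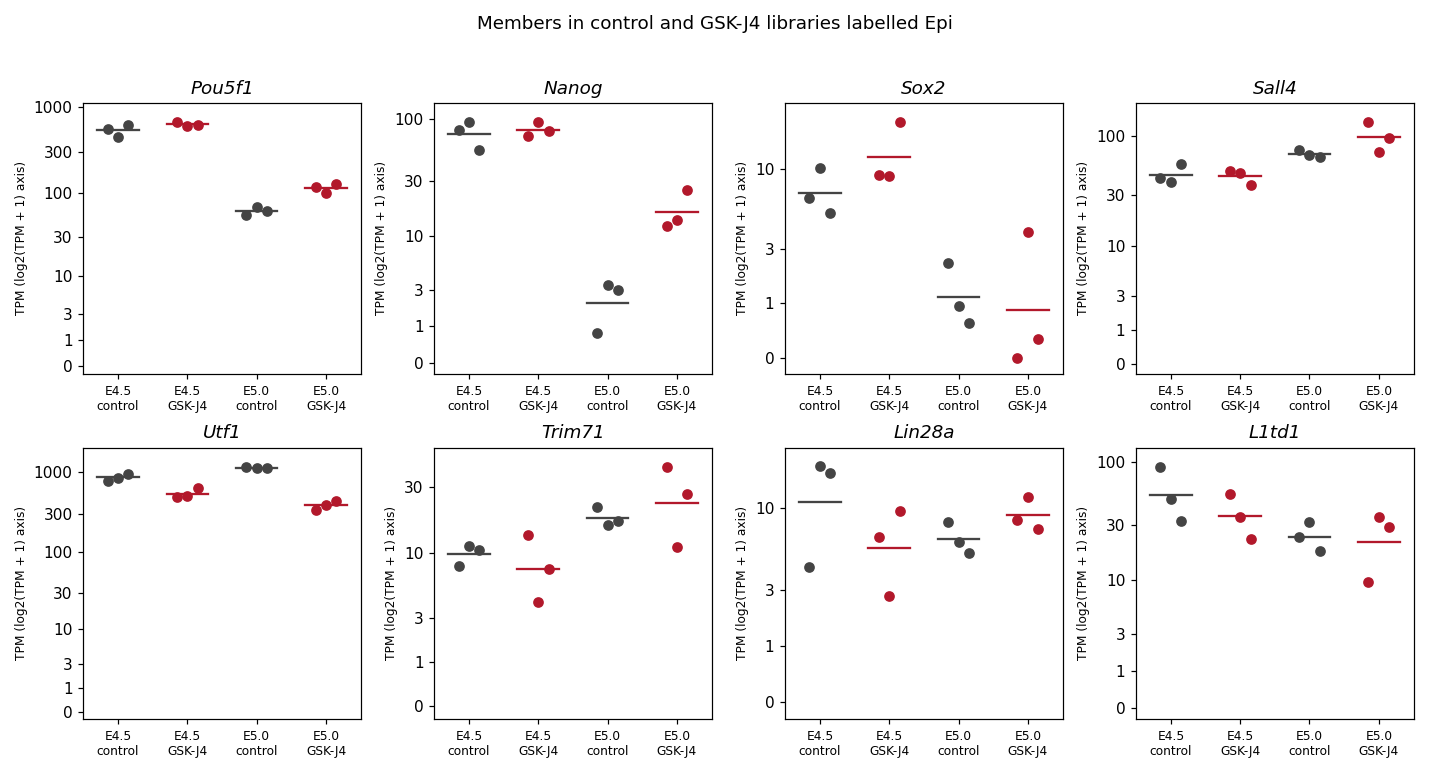
TPM of the 8 genes in each control (grey) and GSK-J4 (red) library at E4.5 and E5.0, on an axis spaced as log2(TPM + 1); the line is the mean of log2(TPM + 1). Utf1 is lower with GSK-J4 at both stages, and Pou5f1 and Nanog are separated from controls at E5.0 but not at E4.5; the difference between stages was not tested, since they lie in separate tables.

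The Suz12 Eed double knockout was checked on its targets first. In Epi, Suz12 stood at 24.7 TPM in controls (range 20.5 to 28.8) and 11.9 in knockouts (7.34 to 18.0), and Eed at 179 TPM in controls (range 157 to 204) and 45.2 in knockouts (38.9 to 51.8). In PrE, Suz12 stood at 29.4 TPM in controls (range 26.0 to 30.9) and 15.1 in knockouts (13.1 to 17.5), and Eed at 166 TPM in controls (range 147 to 174) and 55.5 in knockouts (49.7 to 63.5), so both were lower without overlap in each lineage. In Epi, Lin28a, Sall4 and Utf1 fell. Lin28a went from 27.8, 33.8 and 39.2 TPM in controls to 11.1, 8.42 and 9.01 in knockouts, with every knockout library below every control (log2 change -1.71 ± 0.24 (SE), adjusted p = 0.000346). Sall4 went from 245, 225 and 387 TPM to 124, 136 and 186, also without overlap (log2 change -0.92 ± 0.20 (SE), adjusted p = 0.00929).

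Utf1 in Epi went from 1139, 1481 and 948 TPM to 568, 730.2 and 556 (log2 change -0.93 ± 0.20 (SE), adjusted p = 0.00979), a call lost without control 2 (adjusted p = 0.051) and without the filter on low values. These were 3 of 8 members, against 9.19% of 11250 genes, and relative to the median change of all genes (-0.13) Lin28a changed by -1.59, Sall4 by -0.79 and Utf1 by -0.80. Pou5f1 stood at 43.4, 138 and 53.1 TPM in controls and 24.8, 36.2 and 15.1 in knockouts, without overlap (log2 change -1.48 ± 0.60 (SE), adjusted p = 0.14). Pairing by replicate number was only inferred, from deviations of same-numbered libraries that correlated at r = 0.101 to 0.238. With the number as a block, Pou5f1 (log2 change -1.48, adjusted p = 0.00553) and Trim71 (log2 change -0.66, adjusted p = 0.0312) also fell, for 5 members in all. Sox2 stood at 1.93, 4.28 and 4.04 TPM in controls and 4.53, 7.02 and 4.68 in knockouts (log2 change 0.56 ± 0.33 (SE), adjusted p = 0.312), and Nanog and L1td1 overlapped between the groups.

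In the core network, 2 of 29 tested genes rose in Epi, with Klf2 at 6.47 against 2.28 TPM, and 4 fell, led by Otx2 (15.0 against 42.9 TPM), Mycn (28.8 against 67.6 TPM) and Dppa2 (62.9 against 139 TPM), where 4.48% and 4.71% of all genes rose and fell (median log2 change -0.52, against -0.13 for all genes). In the let-7 list, 2 of 25 rose (Ccnd2 and Cdkn1a) and 3 fell (Ccnd1, Igf2bp3 and Tarbp2; median log2 change -0.42, against -0.13 for all genes). The trophectoderm marker sum in Epi was 1671 to 1812 TPM in controls and 6384 to 7453 in knockouts, with 8 of its 20 markers called higher, 1 lower and none at 0 in either group, and the epiblast sum was 899 to 1102 and 437 to 594. Their part in the falls of Lin28a, Sall4 and Utf1 was not tested.

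In PrE, Sall4 and Lin28a also fell and Utf1 rose. Sall4 went from 919, 887 and 1049 TPM in controls to 324, 424 and 379 in knockouts (log2 change -1.38 ± 0.22 (SE), adjusted p = 0.000472), without overlap. Lin28a went from 39.0, 35.7 and 44.1 TPM to 12.2, 18.6 and 19.0 (log2 change -1.27 ± 0.27 (SE), adjusted p = 0.00303). Control libraries 1 and 2 correlated at r = 0.994, more closely than any other replicate pair of that table (r = 0.973 at most), and were averaged, so n = 2 in control PrE. Utf1 went from 124, 123 and 82.0 TPM to 136, 147 and 208 (log2 change 0.67 ± 0.23 (SE), adjusted p = 0.0412), and this call was lost in 7 of 13 alternatives, with log2 change 0.44, adjusted p = 0.176 after quantile normalization and log2 change 0.38, adjusted p = 0.414 without control 3.

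These were 3 of the 6 members tested in PrE (Nanog and Sox2 were too low), against 26.7% of 11354 genes. The median change of all genes was 0.40, and relative to it Sall4 changed by -1.78, Lin28a by -1.67 and Utf1 by 0.27. Trim71 (32.1, 32.3 and 36.6 TPM in controls, 25.7, 40.1 and 42.7 in knockouts) overlapped. Of the core network, 4 of 25 tested genes rose and 4 fell (21.6% and 5.2% of all genes; median log2 change -0.26, against 0.40 for all genes), and of the let-7 list 4 of 26 rose, led by Ccnd2 (17.4 against 0.968 TPM) and Cdkn1a (251 against 81.2 TPM), and 2 fell (median log2 change 0.22, against 0.40 for all genes). Over all genes 2447 rose and 590 fell, and after quantile normalization 1297 rose and 1025 fell. The trophectoderm sum in PrE was 648 to 963 TPM in controls and 2265 to 2354 in knockouts, and the primitive endoderm sum 10716 to 11921 and 14114 to 16356; their part was not tested.

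The knockout change of Utf1 differed between PrE and Epi by 1.60 ± 0.31 on the log2 scale (SE; adjusted p = 0.00275), 1 of 8 members against 19.1% of genes; the median difference of all genes was 0.45, and relative to it Utf1 differed by 1.15. Over all genes the difference was positive in 1972 and negative in 548, and in 959 and 812 after quantile normalization. The falls of Sall4 and Lin28a did not differ between the lineages by this test (differences -0.46 ± 0.30, adjusted p = 0.305, and 0.45 ± 0.36, adjusted p = 0.404), which does not show that they were alike. Between control lineages, Pou5f1 was -4.69 on the log2 scale in PrE against Epi, Nanog -2.07 and Utf1 -3.52, and Sox2 was lower too, whereas Sall4 was higher by 1.81 ± 0.22 (adjusted p = 7.45e-06). These were 5 of 8 members, against 56.5% of genes, and relative to the median of all genes (-0.46) Pou5f1 was at -4.23, Nanog at -1.62, Utf1 at -3.07 and Sall4 at 2.27. The fall of Nanog was lost without PrE control 3 (adjusted p = 0.0619). Trim71, Lin28a and L1td1 did not pass between control lineages, with group means in PrE and Epi of 34.4 and 39.5, 40.7 and 33.6, and 53.4 and 62.6 TPM.

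**Figure D3:**
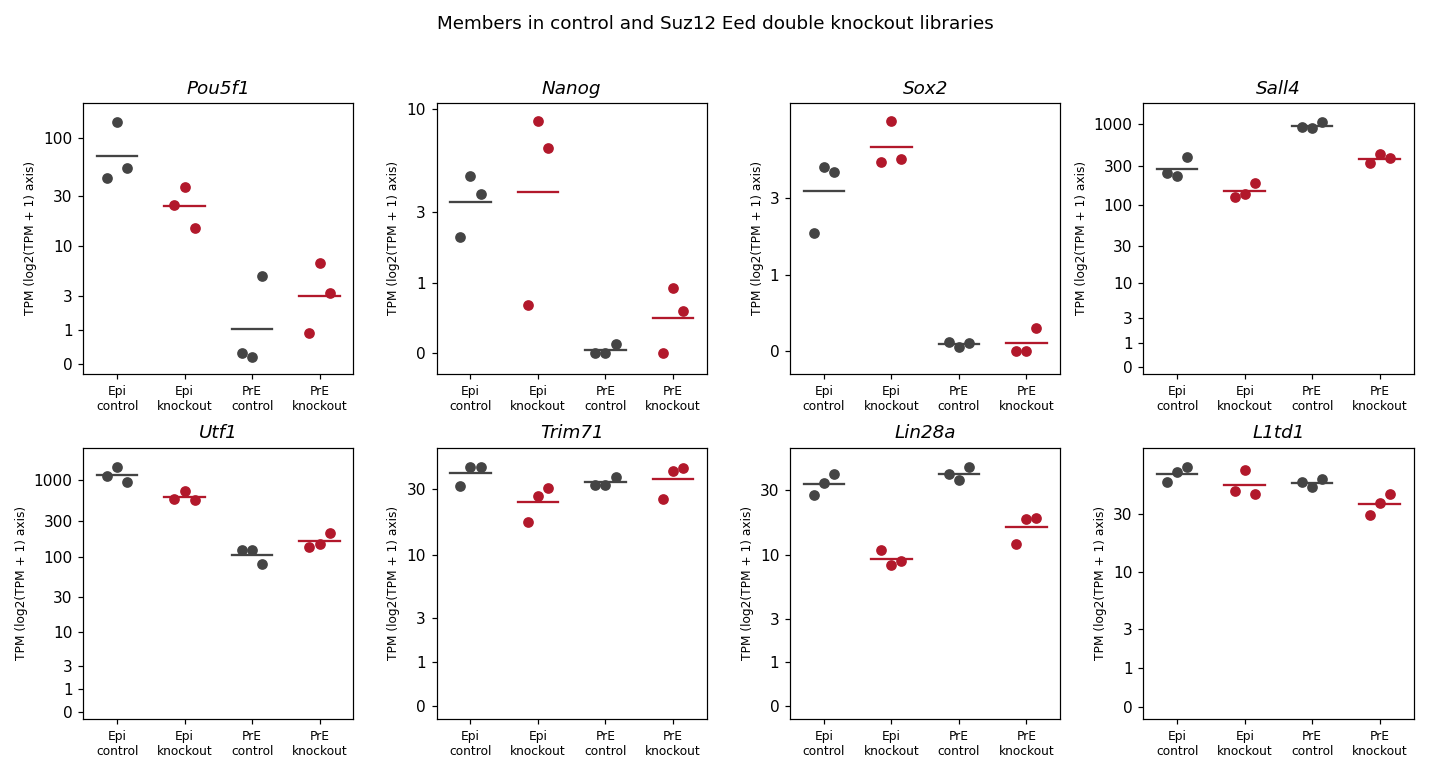
TPM of the 8 genes in each control (grey) and Suz12 Eed knockout (red) library of Epi and PrE, on an axis spaced as log2(TPM + 1); the line is the mean of log2(TPM + 1), and 2 of the 3 PrE controls are nearly identical. Lin28a and Sall4 are lower in knockouts of both lineages, and Utf1 is lower in Epi and higher in PrE.

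In the E4.5 Zbtb17 table no member passed the test with limma, where 0.131% of 4576 genes did, and 0 of the 7 members tested had an unadjusted p under 0.05 (370 of all genes). Replicates there correlated at r = 0.497 to 0.569, lower than in any other table, so the lack of calls does not show that the members were unchanged. Pou5f1 was listed at 0 in 5 of the 6 libraries and at 38.1 TPM in 1 control, while Nanog ran from 0.254 to 50.0 TPM in controls and from 1.84 to 70.5 in knockouts. Zbtb17 itself was listed at 0 in all 3 controls, so it does not check the labels. In the dTAG comparison at E5.0 no member passed either, against 11.7% of 10658 genes, and 1 of 8, Sox2, had an unadjusted p under 0.05 (2758 of all genes). Pou5f1 stood at 77.9, 73.0 and 69.7 TPM in controls and 80.8, 66.3 and 71.1 with dTAG, and Utf1 at 799, 741 and 764 and 708, 822 and 821.

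Nanog was listed at 0 in 2 of 3 dTAG libraries and at 7.73 TPM in the other, against 8.06, 2.04 and 7.59 in controls (log2 change -1.59 ± 0.84 (SE), adjusted p = 0.27); without that library it passed (log2 change -2.63, adjusted p = 0.0428). Sox2 stood at 3.81, 2.49 and 2.48 TPM in controls and 0.986, 0.981 and 0.854 with dTAG, with no overlap (adjusted p = 0.179). A degraded protein need not change its own transcript, and Zbtb17 stood at 3.11 TPM in controls and 6.21 with dTAG. In the core network 4 of 27 tested genes rose, led by Nr0b1 (41.7 against 3.22 TPM) and Mycn (33.5 against 12.3 TPM), and 2 fell, Dppa3 and Dppa4 (7.2% and 4.49% of all genes; median log2 change 0.42, against 0.14 for all genes). In the let-7 list none of 23 rose and 2 fell, Ccnd1 among them. Over all genes 767 rose and 479 fell, and after quantile normalization 515 rose and 526 fell. The primitive endoderm sum was 701 to 849 TPM in controls and 2328 to 2462 with dTAG, and the trophectoderm sum 3164 to 3339.9 and 3825 to 4249.

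Wild-type EB lost Sox2, Utf1 and Trim71 and gained Nanog and Lin28a between day 1 and day 3. Sox2 held 338 and 328 TPM on day 1, 177 and 169.5 on day 2 and 91.7 and 93.4 on day 3 (day 3 against day 1, log2 change -1.84 ± 0.05 (SE), adjusted p = 9.63e-12). Utf1 held 1096 and 1096 TPM, then 739 and 767, then 408 and 433 (log2 change -1.38 ± 0.07 (SE), adjusted p = 4.80e-09). Both fell at each step, and no libraries of neighbouring days overlapped. Trim71 fell in the same order, from 124 and 131 TPM to 67.5 and 69.9 and 30.2 and 33.2 (log2 change -1.97 ± 0.06 (SE), adjusted p = 5.25e-11).

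Nanog held 81.6 and 80.0 TPM on day 1, 118 and 109 on day 2 and 287 and 268 on day 3 (log2 change 1.77 ± 0.05 (SE), adjusted p = 3.93e-11). Lin28a held 175 and 175, 251 and 250.2 and 321 and 294 TPM (log2 change 0.81 ± 0.09 (SE), adjusted p = 6.07e-06). Lin28a thus rose while Trim71 fell over these days, and any part of let-7 was not tested. Pou5f1 changed less, with means of 2389.9, 1803 and 1891 TPM (day 3 against day 1, log2 change -0.34 ± 0.06 (SE), adjusted p = 0.00036), and Sall4 held 145 and 143 TPM on day 1 and 135 and 139 on day 3.

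On day 3 against day 1, 7 of 8 members passed, against 69.9% of 13622 genes, and on day 2 against day 1 all 8 passed, against 56.1% of 13642 genes, where the fall of Sall4 (log2 change -0.12) was lost in 6 of 9 alternatives. Of 32 core network genes, 4 rose and 26 fell by day 3 (31.9% and 37.9% of all genes; median log2 change -1.73, against -0.05 for all genes). Among 26 let-7 pathway genes tested, 10 rose and 10 fell (median log2 change 0.08, against -0.05 for all genes), and Lin28b, the paralog of Lin28a, stood at 4.28 TPM on day 1 and 19.4 on day 3. Day 0 stood apart: Pou5f1 held 15.7 and 13.4 TPM, Utf1 5.37 and 6.76 and Trim71 0 and 0.0433, while 97.6%, 97.5% and 97.7% of genes passed on days 1, 2 and 3 against day 0, with a median change of 2.80 on each (0.38 to 0.44 after quantile normalization). All 8 members passed in each of these 3 comparisons, which therefore say nothing particular about them.

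In Zbtb17 knockout EB, Trim71 and Lin28a were lower than in wild type on days 1, 2 and 3. Zbtb17 itself stood at 22.1 TPM in wild type and 10.0 in the knockout on day 1, 21.9 and 13.4 on day 2, and 17.7 and 13.5 on day 3. Trim71 in the knockout held 87.1 and 82.9 TPM on day 1 (log2 change -0.58 ± 0.06 (SE), adjusted p = 3.12e-05), 45.0 and 45.9 on day 2 (log2 change -0.58 ± 0.06 (SE), adjusted p = 1.60e-05) and 22.3 and 22.7 on day 3 (log2 change -0.48 ± 0.06 (SE), adjusted p = 4.74e-05). Each knockout library lay below both wild-type libraries of its day, and the day 3 call was lost after quantile normalization (adjusted p = 0.17).

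Lin28a in the knockout held 141 and 150.2 TPM on day 1 (log2 change -0.27 ± 0.09, adjusted p = 0.039), 178 and 179 on day 2 (-0.49 ± 0.09, adjusted p = 0.00118) and 198 and 200.3 on day 3 (-0.62 ± 0.09, adjusted p = 0.000115). The day 1 call was lost in 7 of 12 alternatives and the day 2 call with pseudocount 0.1 and after quantile normalization. Every knockout library lay below both wild-type libraries of its day. Lin28b was also lower, at 9.95 against 18.4 TPM on day 2 and 10.6 against 19.4 TPM on day 3.

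On day 3, Nanog was lower and Sox2 and Utf1 higher in the knockout. Nanog held 287 and 268 TPM in wild type and 142 and 144 in the knockout (log2 change -0.95 ± 0.05 (SE), adjusted p = 3.25e-08). Sox2 held 91.7 and 93.4 and 162 and 168 (log2 change 0.83 ± 0.05 (SE), adjusted p = 3.66e-08), and Utf1 408 and 433 and 803 and 796 (log2 change 0.93 ± 0.07 (SE), adjusted p = 5.16e-07). For these 3 genes the knockout on day 3 lay between the wild-type levels of days 1 and 3. Sall4 fell (-0.39 ± 0.05, adjusted p = 2.03e-05), L1td1 rose by 0.20 in a call lost in 4 of 12 alternatives, and Pou5f1 stood at 1814 and 1805 TPM against 1809 and 1972.

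Members called were 5 of 8 on day 1 (36.4% of genes), 3 on day 2 (42.8%) and 7 on day 3 (55.2%), each of 8 tested. On day 1 Nanog was higher in the knockout (log2 change 0.27 ± 0.05 (SE), adjusted p = 0.00229) and Utf1 lower (log2 change -0.29 ± 0.07 (SE), adjusted p = 0.00849), the reverse of day 3. The change from day 1 to day 3 differed between genotypes for 6 members, against 39.0% of genes: Nanog (-1.22 ± 0.08, adjusted p = 2.35e-07), Utf1 (1.21 ± 0.10, adjusted p = 2.56e-06), Sox2 (0.88 ± 0.07, adjusted p = 1.10e-06), Sall4, Lin28a and L1td1. From day 1 to day 2 it differed for Sox2 alone, against 19.8% of genes. Of the 32 core network genes, 22 were higher and 7 lower in the knockout on day 3, with Nr0b1 (53.6 against 1.91 TPM), Zfp42 (207 against 11.0 TPM) and Esrrb (55.6 against 2.78 TPM), naive factors, highest in change (20.9% and 34.3% of all genes; median log2 change 0.96, against -0.10 for all genes). In the let-7 list 4 of 26 were higher and 14 lower (median log2 change -0.29, against -0.10 for all genes). The trophectoderm sum was 90.7 to 93.4 TPM in wild type and 417 to 436 in the knockout on day 1 and 269 to 273 and 394 to 407 on day 3, and its part was not tested.

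On day 0, Pou5f1 (15.7 and 13.4 TPM in wild type, 20.0 and 21.5 in the knockout) and Sox2 were called higher and Utf1 and L1td1 lower, 4 of 6 members tested against 58.9% of 6864 genes. Against day 0, the knockout changes of days 1, 2 and 3 differed for 7, 6 and 8 members, where 36.2%, 44.7% and 53.5% of genes did. The 2 libraries of an EB group correlated at r = 0.991 to 0.994 across genes, as closely as the PrE pair that was averaged, so they may be technical repeats and these p-values may be too small. The labels name 3 biological replicates per group and the EB groups hold 2 libraries each.

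**Figure D4:**
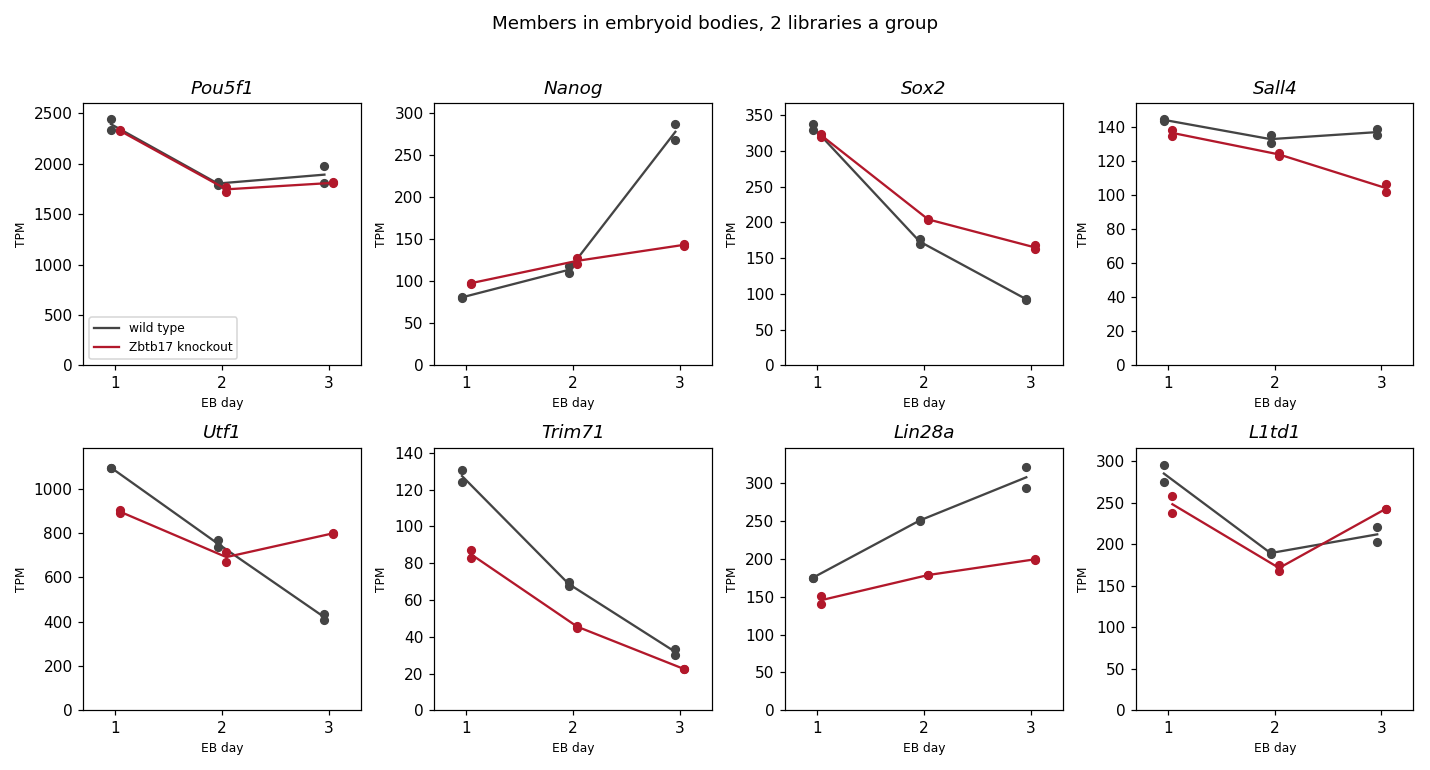
TPM of the 8 genes in EB on days 1, 2 and 3, from 0, with each library as a point and lines joining the means of 2 libraries; grey is wild type and red is the Zbtb17 knockout. Trim71 and Lin28a are lower in the knockout on each day, and Nanog, Sox2 and Utf1 separate most on day 3.

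Each of 39 screen knockouts was set against its batch controls. Members passed in 65 of 299 tests (21.7%), 42 higher and 23 lower, against 10.1% of all gene-by-knockout tests (5.04% higher and 5.09% lower). The 23 lower calls became 43 with library weights and 15 without control 1 or without knockout 3 of each group. With only the 2 groups compared, and so without the pooled spread, 22 of the 65 calls were lost. In 4 of the 299 tests, all of Nanog, every control was under 1 TPM, and without them 61 of 295 passed. That count still holds tests that met the filter only with the help of knockout libraries. Among them were Nanog with Ssrp1, Ezh2, Gtf2b and Hdac1 Hdac3, and Sox2 with Bend3 in batch 8. Knockouts of 1 batch share its controls, so these tests are not independent. Without batches 6 and 7 the count was 57 of 287, 39 higher and 18 lower, against 8.95% (4.77% and 4.18%). Utf1 was called most often, in 20 of 39 knockouts, 14 of them lower. Pou5f1 rose in 7 and fell in 3, Lin28a rose in 5 and fell in 3, and Sall4 (9 of 39) was called only higher. Nanog was called higher in 9 of 29 tested, and many of its controls were too low for a fall to be called. L1td1 was called in 4, Trim71 in 4 and Sox2 in 1. No member was called in 13 knockouts, and Elf5 had the most, 7 of 8 (6 of 7 without Nanog). The median change of all genes in a knockout ran from -0.32 (Bend3 in batch 7) to 0.24 (Myc). Where it passed 0.1 in size, calls printed with their log2 change are also given relative to it. In the 40 pairs of a knockout and its targeted gene, 29 genes were lower in mean TPM; 8 passed as lower and 3 as higher (Myc, Cxxc1 and Bend3 in batch 7); guides that cut a gene need not lower its transcript.

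**Figure D5:**
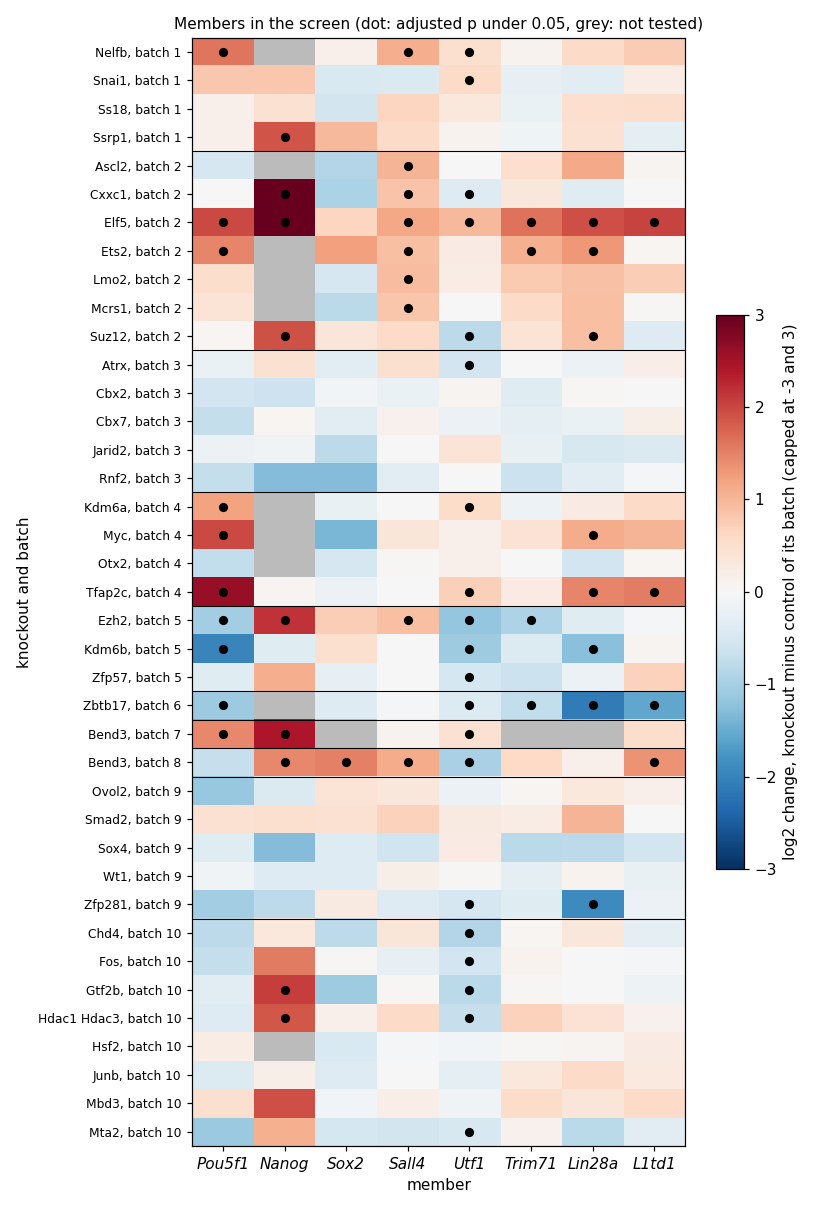
Log2 change of the 8 genes in each of 39 knockouts against the controls of its batch, with color capped at 3 in either direction, a dot where the adjusted p is under 0.05 and grey where a gene was not tested. Utf1 is called lower in 14 knockouts, and Elf5 has the most members higher, 7.

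Knockout of Elf5, a transcription factor of the trophoblast, raised 7 members. Nanog was tested there only through the knockout libraries, since its controls were at 0, and 6 of the 7 other members rose, where 25.1% of genes passed. Controls of batch 2 held 19.7, 35.4 and 29.6 TPM of Pou5f1 and Elf5 knockouts 90.2, 112 and 138 (log2 change 1.99 ± 0.36 (SE), adjusted p = 7.92e-06). L1td1 went from 26.9, 41.9 and 32.0 TPM to 163, 142 and 111 (log2 change 2.02 ± 0.39 (SE), adjusted p = 2.65e-05), and Trim71 from 18.3, 22.0 and 14.0 to 60.4, 50.9 and 61.2 (log2 change 1.63 ± 0.29 (SE), adjusted p = 5.59e-06). Sall4, Utf1, Lin28a and Nanog rose as well, Nanog from controls listed at 0 to 12.1, 40.5 and 19.1 TPM, and no knockout library overlapped a control in any of the 7. Sox2, at 4.42, 5.44 and 3.72 and 11.4, 4.10 and 9.03 TPM, was not called.

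In the Elf5 comparison, Elf5 itself stood at 79.8 TPM in controls and 38.6 in knockouts. The epiblast marker sum was 618 to 681 TPM in controls and 1207 to 1353 in knockouts, and the trophectoderm sum 4517 to 4699 and 3582 to 3838; their part in the rise of the members was not tested. Ets2 knockout, in the same batch and of another trophoblast factor, raised Pou5f1 (94.0, 62.9 and 78.7 TPM), Sall4, Trim71 (29.4, 44.0 and 43.4 TPM) and Lin28a (8.28, 7.36 and 11.3 TPM), 4 of 7 tested against 23.4% of genes. Its epiblast sum was 574 to 639 and its trophectoderm sum 8519 to 9514 TPM. The calls on Trim71 and Lin28a were lost with library weights.

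Knockout of Tfap2c, a trophectoderm factor, gave the largest change of Pou5f1 among the 39 knockouts. Controls of batch 4 held 18.6, 15.6 and 23.4 TPM and Tfap2c knockouts 128, 115 and 121 (log2 change 2.61 ± 0.36 (SE), adjusted p = 1.75e-08; 2.43 relative to the median of all genes). Utf1 (599, 545 and 532 and 929, 926 and 908 TPM), L1td1 (21.1, 18.7 and 24.6 and 57.9, 65.1 and 67.5) and Lin28a (4.97, 5.05 and 3.39 and 20.8, 11.4 and 11.6) rose too, 4 members against 13.4% of genes; relative to the median, Utf1 changed by 0.54, L1td1 by 1.34 and Lin28a by 1.29. Sall4 and Trim71 did not pass, at 47.1, 55.0 and 53.8 TPM of Sall4 against 55.4, 46.5 and 53.1. The epiblast sum was 182 to 198 TPM in controls and 925 to 1084 in knockouts, and the trophectoderm sum 3353 to 3696 and 2753 to 2811, and their part was not tested.

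In the same batch, Pou5f1 was higher in the libraries labelled Myc knockout (76.2, 79.2 and 76.7 TPM, log2 change 1.97 ± 0.36 (SE), adjusted p = 2.05e-05; 1.74 relative to the median), as was Lin28a (11.9, 11.6 and 8.99 TPM; 0.88 relative to the median), 2 of 7 tested against 9.7% of genes, while Myc itself stood at 56.6 TPM in controls and 145 in knockouts. Nelfb is a subunit of the factor that pauses RNA polymerase. In the libraries labelled Nelfb knockout, Pou5f1 rose from 23.0, 33.9 and 27.5 TPM to 116, 76.7 and 72.1, Sall4 from 30.3, 37.5 and 33.4 to 78.0, 73.2 and 67.4 and Utf1 rose too, 3 of 7 members tested against 21.4% of genes. The epiblast sum was 478 to 519.9 TPM in controls and 925 to 1251 with Nelfb, and the primitive endoderm sum 1022 to 1075 and 3761 to 4426. The libraries labelled Myc and Nelfb knockout did not have lower transcripts of their own targets. The Lin28a call for Myc was lost in 5 of 14 alternatives.

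Utf1 fell in 14 knockouts. The 6 largest falls were in Ezh2 (-1.16), Kdm6b (-1.06), Bend3 in batch 8 (-0.96), Chd4 (-0.89), Gtf2b (-0.80; -0.93 relative to the median of all genes) and Suz12 (-0.78; -0.94 relative to it). Ezh2, the catalytic subunit of the complex that holds Suz12 and Eed, gave 467, 407 and 351 TPM against 971, 886 and 874 in controls (log2 change -1.16 ± 0.14 (SE), adjusted p = 1.12e-11). Suz12 knockout gave 318, 264 and 271 TPM against 463, 526 and 472 (log2 change -0.78 ± 0.14 (SE), adjusted p = 2.40e-06). So Utf1 was lower in each of the 3 embryo comparisons that targeted a core subunit of this complex in Epi (Suz12, Ezh2, and Suz12 with Eed), and in each the groups did not overlap. The fall was not particular to these. Against the batch 5 controls shared with Ezh2 (mean 910 TPM), Kdm6b (435) and Zfp57 (630) were called lower as well. Against the batch 2 controls shared with Suz12 (487), Cxxc1 (374) was called lower and Elf5 (953) higher.

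Of the other members, Lin28a was called higher with Suz12 (8.01, 5.40 and 5.96 TPM against 3.59, 3.38 and 2.10, adjusted p = 0.0495; 0.74 relative to the median), a call lost in 9 of 14 alternatives, and lower in the Suz12 Eed knockout. Sall4 rose with Ezh2 (57.8, 79.4 and 50.7 TPM against 27.1, 55.0 and 22.4), with overlap, and fell in the Suz12 Eed knockout. Pou5f1 (85.3, 20.7 and 42.3 TPM against 118, 70.8 and 83.1) and Trim71 (2.43, 7.83 and 0.923 against 8.45, 4.63 and 6.50) were called lower with Ezh2, with overlap, in calls lost in 6 and 5 of 14 alternatives; both were also lower in Suz12 Eed Epi with the replicate block. Nanog was called higher with Ezh2 (29.6, 5.24 and 6.11 TPM against 0.355, 1.65 and 3.09) and with Suz12 (1.38, 3.08 and 4.41 TPM against controls listed at 0), and overlapped in the Suz12 Eed knockout. The trophectoderm sum was 4517 to 4699 TPM in batch 2 controls and 16898 to 17366 with Suz12, and 3651 to 3773 and 6374 to 8593 with Ezh2. Members called were 2 of 7 with Suz12 (22.1% of genes), Nanog aside, whose controls were at 0, and 5 of 8 with Ezh2 (26.8%). The Ezh2 count includes Nanog, which, with a control at 0.355 TPM, met the filter only with the help of knockout libraries. The Polycomb-related knockouts of batch 3, Cbx2, Cbx7, Jarid2 and Rnf2, had no member called, where 1.66%, 0.959%, 1.82% and 1.83% of genes passed with limma; unadjusted p-values under 0.05 were found for 5 of 32 of their member tests.

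In batch 10, Utf1 was called lower with Chd4 (479, 514 and 463 TPM), Gtf2b (588, 420.3 and 551), the Hdac1 Hdac3 double knockout (608, 506 and 546), Fos (692, 569 and 554) and Mta2 (649, 631 and 636), against 1104, 1147 and 571 in controls. Control 3, at 571 TPM, lies inside or below the range of 4 of these 5 groups, and the Chd4 group alone lies below it in every library. Pou5f1 was also low in that control (39.3, 46.8 and 13.8 TPM in controls 1, 2 and 3). The Fos and Mta2 calls were lost when control 1 or control 2 was left out. Chd4 and Mta2 are subunits of the NuRD complex, with Hdac1, and Gtf2b is a general transcription factor. Chd4 itself stood at 6.23 TPM in controls and 6.17 in its knockout libraries. The other targets were lower in mean, Fos at 45.9 and 10.5, Mta2 at 12.8 and 4.78 and Gtf2b at 27.2 and 19.5 TPM. Hdac1 stood at 157 and 32.8 and Hdac3 at 25.0 and 11.1 TPM. For the further NuRD subunit Mbd3, Utf1 stood at 852, 747 and 897 TPM and no member was called. Members called were 1 of 8 with Chd4 (7.4% of genes), Fos (1.39%) and Mta2 (1.77%) and 2 with Gtf2b (15.4%) and Hdac1 Hdac3 (7.5%), against 1.32% of genes and no member with Mbd3. The other member with Gtf2b and with Hdac1 Hdac3 was Nanog, called higher. Its controls alone did not meet the filter, with the lowest at 0.

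Knockouts of Kdm6a and Kdm6b, the paired demethylases that GSK-J4 inhibits, differed from their own batch controls in opposite directions for Pou5f1 and Utf1. Kdm6b knockout lowered Pou5f1 from 118, 70.8 and 83.1 TPM in controls to 20.1, 26.7 and 18.7 (log2 change -1.99 ± 0.36 (SE), adjusted p = 8.57e-06) and Utf1 from 971, 886 and 874 to 449.7, 418 and 438 (log2 change -1.06 ± 0.14 (SE), adjusted p = 4.88e-10). Kdm6a knockout raised Pou5f1 from 18.6, 15.6 and 23.4 TPM to 39.6, 44.4 and 51.9 (log2 change 1.21 ± 0.36 (SE), adjusted p = 0.0189) and Utf1 from 599, 545 and 532 to 841, 861 and 748 (log2 change 0.55 ± 0.14 (SE), adjusted p = 0.00292). No knockout library overlapped its controls in these 4 cases. Relative to the median of all genes, Pou5f1 was at -1.77 and Utf1 at -0.84 with Kdm6b, and at 0.99 and 0.33 with Kdm6a. The Kdm6a call on Pou5f1 was lost in 5 of 14 alternatives, quantile normalization among them.

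The change with Kdm6a differed from that with Kdm6b for Pou5f1 (3.19 ± 0.52, adjusted p = 3.88e-07), Utf1 (1.61 ± 0.19, adjusted p = 3.27e-11) and Lin28a (1.51 ± 0.49, adjusted p = 0.0164), 3 of 8 members against 21.8% of genes. The median difference of all genes was 0.40, and relative to it Pou5f1 differed by 2.79, Utf1 by 1.20 and Lin28a by 1.10; the Lin28a call was lost in 5 of 16 alternatives. Over all genes the difference was positive in 1840 and negative in 653, and in 978 and 1239 after quantile normalization. The knockouts lie in batches 4 and 5, each set against its own controls, and the controls differed as well. Mean Pou5f1 was 19.2 TPM in batch 4 controls and 90.6 in batch 5 controls, and 45.3 with Kdm6a and 21.8 with Kdm6b. Mean Utf1 was 559 and 910 TPM in these controls, and 817 with Kdm6a and 435 with Kdm6b. Gene and batch cannot be told apart. Kdm6a stood at 5.19 TPM in controls and 2.68 in its knockout, and Kdm6b at 8.06 and 4.29; neither passed. Members called were 2 of 7 tested with Kdm6a (9.25% of genes) and 3 of 8 with Kdm6b (22.7%).

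The trophectoderm sum was 3353 to 3696 TPM in batch 4 controls and 5864 to 6203 with Kdm6a, and 3651 to 3773 in batch 5 controls and 1455 to 1553 with Kdm6b; the epiblast sum was 182 to 198 and 365 to 389, and 349 to 356 and 189 to 258. Their part in these differences was not tested. With GSK-J4 at E5.0, in its own table, Pou5f1 was higher and Utf1 lower, so that neither knockout matched it in both genes.

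Bend3, a DNA-binding repressor, was knocked out in batches 7 and 8. In batch 8, controls held 1352, 1477 and 1557 TPM of Utf1 and knockouts 684, 758 and 806 (log2 change -0.96 ± 0.14 (SE), adjusted p = 7.82e-09), while Sall4 rose from 86.0, 45.6 and 56.2 to 135, 146 and 118 (log2 change 1.12 ± 0.24 (SE), adjusted p = 0.0001) and L1td1 from 17.7, 21.1 and 19.0 to 54.5, 55.6 and 41.7 (log2 change 1.34 ± 0.39 (SE), adjusted p = 0.0057). Nanog and Sox2 were called higher too, in calls lost in 9 and 6 of 14 alternatives, so 5 of 8 members passed against 28.5% of genes. For Sox2 the controls alone did not meet the filter (lowest 0.0927 TPM), so it was tested only with the help of the knockout libraries. In the libraries of batch 7 labelled Bend3 knockout, Pou5f1 rose from 30.4 and 16.3 TPM in 2 controls to 59.6, 77.0 and 52.0, Utf1 from 1344 and 1433 to 1775, 2247 and 1695 and Nanog from 0.921 and 0.394 to 7.26, 2.37 and 23.8, 3 of 5 members tested against 38.8% of genes. Relative to the median of all genes (-0.32), Pou5f1 changed by 1.75 and Utf1 by 0.76. Nanog was tested only through the knockout libraries, since its controls were under 1 TPM, and without it the count was 2 of 4.

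The batch 7 calls on Pou5f1, Utf1 and Nanog were each lost with library weights, which down-weight variable libraries. The Bend3 change differed between batch 8 and batch 7 for Utf1 (-1.41 ± 0.20, adjusted p = 1.72e-08), Pou5f1 (-2.12 ± 0.55, adjusted p = 0.00136) and Sall4 (1.01 ± 0.36, adjusted p = 0.0229), against 31.1% of genes and a median difference of 0.32; relative to it Utf1 differed by -1.73, Pou5f1 by -2.44 and Sall4 by 0.69, and with library weights only Utf1 passed. Of 10 other epiblast markers 6 differed lower and none higher (median difference -1.83), of 13 primitive endoderm markers 8 differed higher and 1 lower (1.91), and of 19 trophectoderm markers 8 higher and 2 lower (0.62). The epiblast sum was 128 to 178 TPM in controls and 463 to 609 in knockouts of batch 7, and 1937 to 2049.6 and 1718 to 2378 in batch 8; the trophectoderm sum was 4084 to 5172 and 2237 to 2398, and 372 to 563 and 194 to 219. Their part in the difference was not tested. Bend3 itself stood at 4.87 TPM in controls and 12.5 in knockouts of batch 7, and at 32.0 and 10.3 in batch 8. Stage, batch and library quality differ between the pair and cannot be told apart.

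Lin28a fell in 3 knockouts. With Kdm6b it went from 13.3, 6.59 and 5.85 TPM in controls to 1.57, 3.48 and 3.81, without overlap (log2 change -1.25, adjusted p = 0.00387; -1.03 relative to the median), in a call lost without control 1 and with only the 2 groups compared. In the libraries labelled Zfp281 knockout it went from 24.6, 27.7 and 41.3 TPM in controls to 7.73, 6.13 and 8.31, without overlap (log2 change -1.92 ± 0.35 (SE), adjusted p = 5.94e-05), and this call held in each of 14 alternatives; Zfp281 is a zinc-finger factor needed for the exit from naive pluripotency. Utf1 was also called lower, for 2 of 8 members against 1.62% of genes, but that call was lost in 4 of 14 alternatives. Zfp281 itself stood at 10.2 TPM in controls and 22.6 in the knockout libraries. Marker sums in that batch were 689 to 872 TPM (epiblast) and 3355 to 3505 (trophectoderm) in controls and 747 to 782 and 4920.5 to 5041 in knockouts.

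In batch 6, which holds only the libraries labelled Zbtb17 knockout and their controls, Lin28a went from 16.7, 18.6 and 13.8 TPM to 9.16, 0.594 and 3.08 (log2 change -2.09 ± 0.35 (SE), adjusted p = 5.29e-07; -1.94 relative to the median), with every library labelled knockout below every control; this call was lost in 1 of 14 alternatives, with only the 2 groups compared. Trim71 fell from 10.3, 9.75 and 15.4 to 9.72, 5.22 and 5.48 in a call lost in 10 of 14 alternatives, and Pou5f1, Utf1 and L1td1 were called lower with overlap, in calls lost in 7, 5 and 3 of 14 alternatives, for 5 of 7 members tested against 30.4% of genes. L1td1 ranged from 0.0774 to 48.0 TPM among the knockouts, and without knockout 3 its log2 change was -0.09. Zbtb17 itself stood at 2.65 TPM in controls (range 0.312 to 4.21) and 6.93 in the libraries labelled knockout (0.0122 to 14.2). The trophectoderm sum was 3712 to 4528 TPM in controls and 12264 to 14705 in knockouts, and the epiblast sum 270.5 to 325 and 61.8 to 133; their part was not tested. Lin28a and Trim71 were called lower in Zbtb17 knockout EB on days 1 to 3 and in the batch 6 libraries labelled Zbtb17 knockout, whose own Zbtb17 mean was above that of their controls, and neither was called in the dTAG comparison.

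Nanog and Sall4 were called higher in 9 knockouts each. Sall4 was never called lower. Nor was Nanog, but its control means left little room for a fall to be called. They were 0 in batch 2, 0.658 TPM in batch 7 and 1.06 to 1.12 in batches 1, 4 and 10. Of its 9 calls, 4 had every control under 1 TPM. Controls of batches 1, 5 and 10 also held a library under 1 TPM (lowest 0.305, 0.355 and 0), so they did not meet the filter alone. The calls with Ssrp1, Ezh2, Gtf2b and Hdac1 Hdac3 were thus tested only with the help of knockout libraries. For Nanog the largest changes were in batch 2, where controls were listed at 0: Elf5, and Cxxc1, a subunit of the Set1 histone methyltransferase complex, with 18.3, 31.6 and 15.7 TPM. With controls at 0, Nanog was tested in these only because the knockout group reached the filter. Of the 7 other members in the libraries labelled Cxxc1 knockout, Sall4 was higher (0.73 relative to the median) and Utf1 lower (-0.50 relative to it, a call lost in 5 of 14 alternatives). There 21.4% of genes passed, and Cxxc1 itself stood at 1.73 TPM in controls and 8.54 in the libraries labelled knockout. Sall4 rose in 6 knockouts of batch 2 (Ascl2, Cxxc1, Elf5, Ets2, Lmo2 and Mcrs1), from 47.0, 51.4 and 46.6 TPM in their shared controls to group means between 87.6 (Mcrs1) and 109 (Elf5). Ascl2 itself stood at 6.35 TPM in controls and 29.0 in the libraries labelled knockout, whereas Elf5, Ets2, Lmo2 and Mcrs1 were lower in mean TPM in theirs. The other 3 were Nelfb, Ezh2 and Bend3 in batch 8.

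Across the 148 screen libraries, as deviations of log2(TPM + 1) from the batch mean, the members most alike were Pou5f1 and Utf1 (Pearson r = 0.552), Trim71 and L1td1 (0.471), and Trim71 and Lin28a (0.458). Sall4 and Utf1 were the least alike (-0.152). Among the most similar named genes were Slc7a3 (0.703) and Stmn1 (0.686) for Pou5f1, Trp53 (0.673), Ino80e (0.673) and Pkm (0.672) for Utf1, Pdcd4 (0.580) for Sall4, Sinhcaf (0.586) for Trim71, Rbpms (0.600) and Dnmt3b (0.593) for Lin28a, Eci1 (0.630) for L1td1, Trh (0.480) for Nanog and Snhg15 (0.478) for Sox2. Libraries of a knockout share its change, and depth and cell content move all genes, so these values describe the libraries and carry no test.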

How the data were processed

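RNA-seq values of 200 libraries were read from 7 deposited tables in TPM (transcripts scaled to library and gene length), which the authors computed before deposit. HISAT2 2.2.1, StringTie 2.2.1, Cufflinks and mm10 are named per the submitters' processing notes, without their roles; libraries had 17 PCR cycles per the labels' protocols. No counts are given, so the depth of each library is unknown and no counting interval can be given; 3986 to 13512 genes reached 1 TPM per library. The table of EB gives no gene names, and its 25006 rows were read in the order of the screen table, with which levels correlated at r = 0.904 (0.110 at most when shifted by 1 to 5 rows). Groups were taken from the labels.

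Levels were compared on the log2(TPM + 1) scale with limma 3.58.1 in R 4.3.3 (eBayes with trend), so folds of low genes are understated. Genes entered a comparison when the number of libraries with 1 TPM or more reached the size of its smaller group, and p-values were adjusted by Benjamini-Hochberg over all genes of a comparison, with a threshold of 0.05; every adjusted p and SE in the text is from this fit. Libraries of a table shared 1 estimate of the spread, and in the screen all groups of the 10 batches did. Control libraries 1 and 2 of PrE and the 3 libraries labelled Aurkb knockout were averaged as near-identical, and Aurkb, with 1 library left, was not tested. In Suz12 Eed Epi, deviations of same-numbered libraries correlated at r = 0.101 to 0.238 in all 3 pairs, and in no other comparison did every pair pass 0.1.

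The members and gene lists were chosen with earlier results of these data known. Named genes are the members, each perturbed gene, up to 3 genes per direction of a list with the largest change among those that passed with 5 TPM or more, and 3 genes most like each member. Alternatives were pseudocount 0.1, no filter, quantile normalization, library weights, a replicate block and only the groups compared. Others were the related rows added to Pou5f1, and leaving out each library. Those on EB day 0, batches 6 and 7, the related rows of Pou5f1 and the Bend3 and Kdm6 differences were added after seeing the data. The fit was tested on simulated data. A few genes of the fixed lists and of the likeness ranking are not reported here by name.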

Additional observations from a re-analysis of the deposited data

Results flagged for a closer look

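Several changes differed between groups by a test of the difference itself (limma, adjusted over all genes). For Utf1, the Suz12 Eed change differed between PrE and Epi by 1.60 on the log2 scale, where the median of all genes differed by 0.45. The trophectoderm sum was 648 to 963 TPM in PrE controls and 2265 to 2354 in PrE knockouts, and their part was not tested.

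In EB, the knockout change differed between day 2 and day 1 for Sox2 (0.29). Between day 3 and day 1 it differed for Nanog (-1.22), Sox2 (0.88), Sall4 (-0.31), Utf1 (1.21), Lin28a (-0.36) and L1td1 (0.40). Against day 0, the differences of the 3 later days gave 21 member calls in all, where 36.2% to 53.5% of genes were called, and day 0 libraries held 57.3% to 59.9% of TPM in ribosomal protein genes.

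The Bend3 change differed between batch 8 and batch 7 for Pou5f1 (-2.12), Sall4 (1.01) and Utf1 (-1.41), and batch 7 held 18.9% to 32.0% of TPM in Rn45s. The changes with Kdm6a and Kdm6b differed for Pou5f1 (3.19), Utf1 (1.61) and Lin28a (1.51). These knockouts lie in different batches, so gene and batch cannot be told apart.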

How the results depend on the processing

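Of 173 member results that passed, 114 passed in every alternative run and 59 were lost in at least 1; of 78 that did not pass, 13 passed in at least 1. The member count with GSK-J4 at E4.5 went from 1 to 0 with pseudocount 0.1, with no filter and with quantile normalization, and was 0 to 1 with each library left out. In Suz12 Eed Epi it went from 3 to 5 with the replicate block. Pairing by number was inferred there alone, from correlations of 0.101 to 0.238 against a cutoff of 0.1. Outside the screen the block left 105 member results on the same side of the threshold, brought 2 past it and lost 1 (Sall4, the EB knockout change on day 1 against day 0). It changed none of the 65 screen calls, and its screen counts were 25 lower and 45 higher. The dTAG count was 0 to 1 with each library left out. In EB the count went from 5 to 3 on day 1 with pseudocount 0.1 (3 to 4 with each library left out), from 3 to 5 on day 2 with only the groups compared and without day 0, from 1 to 2 for the knockout change on day 2 against day 1 without day 0, and from 21 against day 0 to 8 for days 2 and 3 against day 1 without day 0, where 2 differences replace 3 and day 0 is also dropped from the fit. The Bend3 difference went from 3 members to 1 with library weights. Screen calls lower went from 23 to 43 with library weights and were 15 to 24 with each replicate number left out; calls higher were 34 to 57 over all alternatives. The cause was not tested. Changes of sign occurred under quantile normalization alone: Sall4 in the EB knockout on day 0 (-0.14); in wild type against day 0, Nanog on day 1 (-1.96) and day 2 (-1.29) and Sox2 on day 3 (-0.61); and in the knockout change against day 0, Sall4 on day 1 (0.0776) and day 2 (0.0370), Sox2 on day 2 (0.0795) and Lin28a on day 3 (0.17). Depth is unknown, so a member listed at 0 cannot be told from one below detection.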

Other observations

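Paralogs of the members followed patterns of their own in control and wild-type groups. Sox15, a further SOX factor, was more abundant than Sox2 in 13 of the 15 Epi control groups, with group means from 21.8 TPM (batch 3) to 86.9 (batch 7). In the other 2, Sox15 was at 0.0904 in batch 8 and at 0 in the E4.5 Zbtb17 table, the same 2 groups whose trophectoderm marker sum was below the epiblast sum; Sox15 held 0.628 ± 0.888 TPM (SD, n = 2) in control PrE and 39.2 ± 0.882 (n = 3) in control Epi. Sox3, a close relative of Sox2, stood at 34.0 ± 0.438, 84.9 ± 4.04 and 38.1 ± 2.75 TPM (n = 2 each) in wild-type EB on days 1, 2 and 3, and its embryo control mean was highest in batch 8, at 6.21.

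Lin28b, which like Lin28a blocks let-7, carried 4 seed matches after its stop codon. Its group means in embryo controls ran from 0 (batch 7) to 4.88 TPM (batch 8), and in wild-type EB it held 4.28 ± 0.114 TPM on day 1 and 19.4 ± 1.26 on day 3 (n = 2 each). Pou3f1, a POU factor of the formative epiblast, held 331 ± 9.42 TPM in wild-type EB on day 2 and 1.01 ± 1.74 in the E4.5 controls of the GSK-J4 table (n = 3), and 0.0133 ± 0.0230 in those of the Zbtb17 table (n = 3).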
